A study of Mus musculus with 6 samples.

Results

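Expression was compared between 2 arrays labelled shJmjd1c#4 and 2 arrays labelled shNT, which are 4 of the 6 arrays of a study of Jmjd1c knockdown in mouse J1 embryonic stem cells. The arrays were chosen by their labels alone, and the comparison covers all genes tested rather than a selected list. Every culture was J1, a mouse embryonic stem cell line, infected with a lentiviral pLKO.1 vector, selected with puromycin at 1.5 µg/ml for 2 days, then re-plated and grown for 4 more days. The shNT vector carries a non-targeting hairpin, and its cells are labelled wild type. The shJmjd1c#4 and shJmjd1c#3 vectors carry different hairpins against Jmjd1c, and their cells are labelled Jmjd1c knockdown. All cells grew on gelatin, without feeder cells named in the labels, in medium with 15% fetal bovine serum and leukemia inhibitory factor at 1000 U/ml. The infected cells were puromycin-resistant pools and not clones as far as the labels go, and each group has 2 independent biological replicates. RNA was measured once per replicate on the Affymetrix Mouse Genome 430 2.0 array, and the deposited value of a probe set is its signal, an intensity on a linear scale. The shJmjd1c#3 arrays enter only to set the values of the other hairpin beside those of shJmjd1c#4.

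Jmjd1c, also called Kdm3c, belongs to a family of Jumonji-domain proteins that includes demethylases of histone H3 lysine 9, a residue whose methylation marks silent chromatin. Mouse embryonic stem cells in serum and leukemia inhibitory factor are held in a naive pluripotent state by Pou5f1, Sox2 and Nanog together with factors such as Klf4, Esrrb and Tfcp2l1. ERK signalling moves them toward the formative state, which is marked by Fgf5, Otx2 and Dnmt3b, and onward to lineage cells that make matrix, contractile fibres and intermediate filaments. Short hairpin RNAs lower the RNA they match, and 2 hairpins against one gene share that target but can differ in their strength and in other RNAs they touch.

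The 3 probe sets of the targeted gene did not move in one direction. Probe set 1426900_at read 6060.3 and 5516 in the shNT arrays, 3274 and 4215 in the shJmjd1c#4 arrays, and 4541 and 4984 in the shJmjd1c#3 arrays. The shJmjd1c#4 arrays were the lowest of the 6 and stood at 64.7% of the control mean. In limma over 45037 probe sets the log2 difference was -0.64 (SE 0.15, n = 2 arrays a group, adjusted p = 0.281), which passed the threshold of 0.05 only in the fit that takes the replicate number as a block (adjusted p = 0.0394). Probe set 1448049_at was higher in the shJmjd1c#4 arrays, with 368 and 373 in shNT and 822 and 629.6 in shJmjd1c#4. Its log2 difference was 0.93 (SE 0.18, adjusted p = 0.184, and 0.0219 with the block). Probe set 1439998_at read 198 and 273 in shNT and 427 and 397 in shJmjd1c#4, with a log2 difference of 0.78 (SE 0.28, adjusted p = 0.474, and 0.235 with the block). The shJmjd1c#3 arrays were also above both controls on these 2 probe sets. Where the hairpin matches the RNA and where each probe set lies was not analysed here, so these arrays check the knockdown label only in part, and the group is called below by its label.

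**Figure D1:**
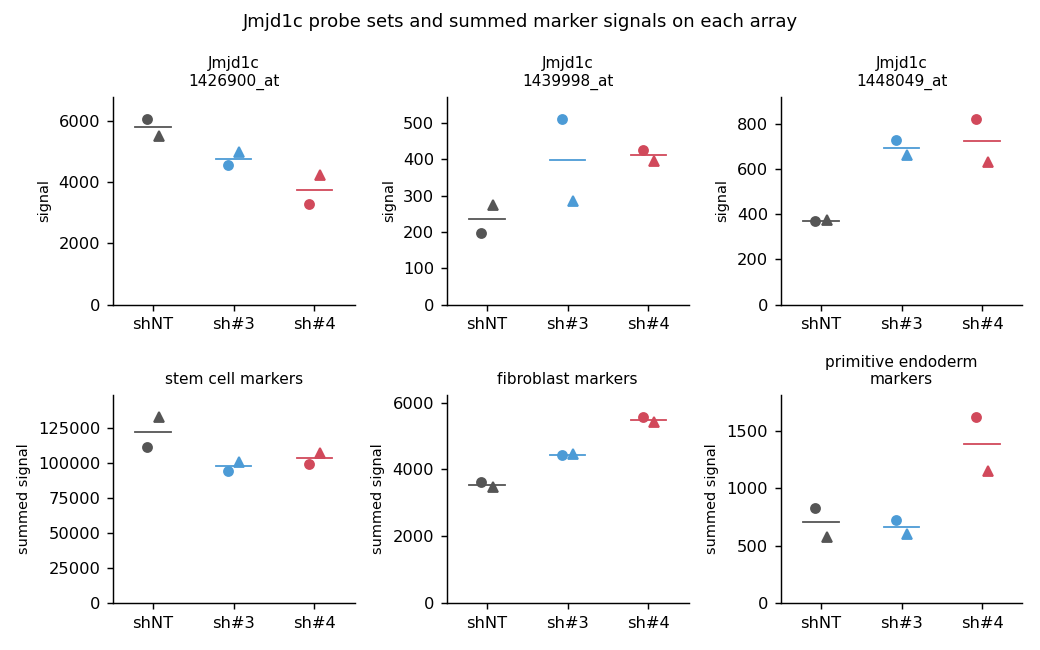
Signal of the 3 Jmjd1c probe sets (upper row) and summed signal of 3 marker lists (lower row) on each of the 6 arrays, on linear axes from 0. Circles are replicate 1, triangles replicate 2 and bars the group mean. 1426900_at is lowest in shJmjd1c#4 (3274 and 4215), the other Jmjd1c probe sets are higher than in shNT, and the summed primitive endoderm markers are highest in shJmjd1c#4 (1619.9 and 1147).

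In the shJmjd1c#4 arrays the matrix genes Tnc, Col3a1, Dcn, Col4a1 and Col4a2, the smooth muscle actin gene Acta2 and the intermediate filament genes Vim and Nes rose. The chromatin protein gene Hmga2 and the planar cell polarity gene Prickle1 rose too. The germ cell regulators Prdm1 and Dmrt1 fell, as did Plac8, Adgre5 and Pdgfc. Pou5f1 was near its control level. Of 12684 genes tested with 1 probe set each, 46 passed a Benjamini-Hochberg adjusted p of 0.05 in limma, which is 0.363% of all genes tested. The 36 that rose make up 0.284% of the genes and the 10 that fell 0.0788%, and 32 and 5 of them changed at least 2-fold on the scale of log2(signal + 16). All 46 genes had both shJmjd1c#4 arrays on one side of both shNT arrays, which held for 21% of all genes in the upward and 17.8% in the downward direction. The smallest log2 difference in size among the 46 was 0.86. Rising genes had a median control signal of 417 and falling genes one of 1264.

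The number of calls depended strongly on how the replicates were treated. At an unadjusted p of 0.05, 863 genes (6.8%) were higher and 678 (5.35%) lower. The fit with the replicate block called 622 genes (4.9%), 341 higher (2.69%) and 281 lower (2.22%), and all 46 were among them. These shares of all genes, with 0.284% higher and 0.0788% lower in the main fit, are those to set beside each count of list members below. Without shNT replicate 2 only 5 genes passed, without shJmjd1c#4 replicate 1 only 3, without shJmjd1c#4 replicate 2 only 20, and without shJmjd1c#3 replicate 2, which enters through the shared spread, 26. Cd44, Dcn, Dip2c, Dnajc3, Gpr137b, Ptpmt1 and Sox13 lost the call whichever array was left out. With the mean of all probe sets of a gene in place of the brightest one, 25 of the 43 called genes that could be tested passed. The 18 that did not were Acta2, Ccnd2, Col3a1, Col4a1, D8Ertd738e, Dnajc3, Fzd2, Gpr137b, Greb1l, Meis2, Nes, Nhsl1, Peg3, Prickle1, Ptpn13, Serpinh1, Trio and Zmiz1. Without the probe sets that can cross-hybridize, which end in _x_at or _s_at, 38 of 42 passed, and Masp1, Meis2, Serpinh1 and D8Ertd738e did not. Acta2, F2r, Gpr137b and Pkdcc could not be tested there. Among genes given below that passed only with the block, the mean of probe sets made the differences of Cdyl2, Dab2, Epcam, Ets1, Itga8, Pfkp, Plagl1, Ptch1, Sox17 and Spred1 more than 1.5 times smaller. Leaving out cross-hybridizing probe sets did so for Flnc, Lrp2, Plagl1, Sdc1 and Sox17, and Cubn could not be tested without them. When each array was centred on its median, 33 genes rose and 22 fell, against 36 and 10 on the deposited scale, and the median difference over all genes moved from 0.02 to -0.09.

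**Figure D2:**
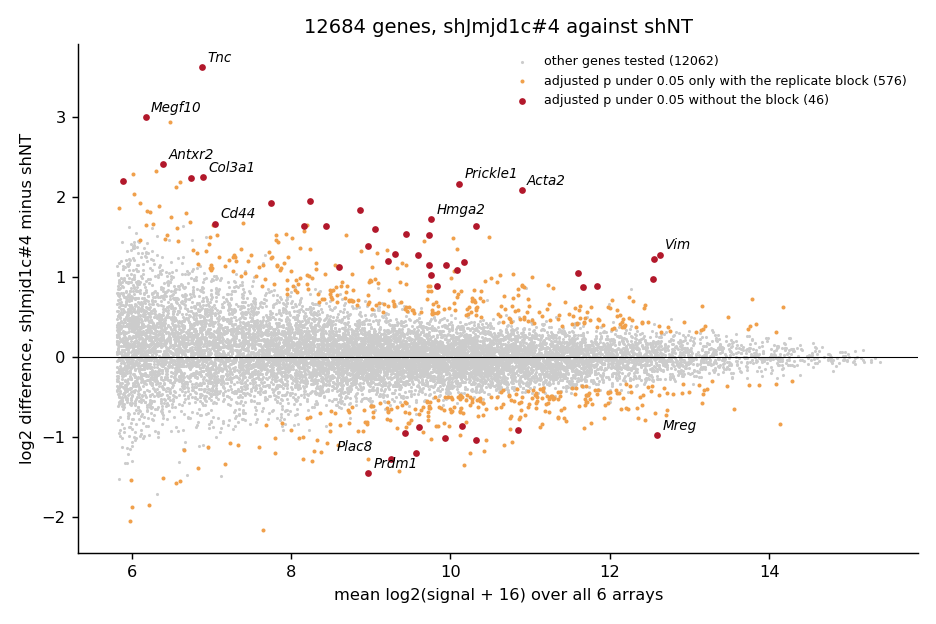
Mean level over all 6 arrays, as log2(signal + 16), against the log2 difference between shJmjd1c#4 and shNT for each of 12684 genes. Red points are the 46 genes with an adjusted p under 0.05, orange points pass only with the replicate block and grey points neither. The red points reach 3.63 upward (Tnc) and -1.46 downward (Prdm1).

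Tnc, Megf10, Antxr2, Col3a1, Masp1 and Dcn had the 6 largest rises, and 4 of them encode matrix proteins or a receptor for them. Tnc, which encodes tenascin C, a matrix glycoprotein of embryos and wounds, read 19.6 and 6.36 in shNT and 354 and 313 in shJmjd1c#4. Its log2 difference was 3.63 (SE 0.32, adjusted p = 0.00505), and 2.32 with the mean of its probe sets (adjusted p = 0.0424). Col3a1, a fibrillar collagen, read 25.6 and 37.6 in shNT and 171 and 254 in shJmjd1c#4, with a log2 difference of 2.25 (SE 0.35, adjusted p = 0.0443, and 0.153 with the mean of its probe sets). Dcn, the collagen-binding proteoglycan decorin, went from 10.9 and 11.7 to 106 and 113, with a log2 difference of 2.20 (SE 0.35, adjusted p = 0.0456). Antxr2, a cell surface receptor for matrix proteins, went from 23.1 and 6.41 to 164 and 122, with a log2 difference of 2.41 (SE 0.37, adjusted p = 0.0425). In each of these genes the groups stood far apart, and the control values were close to the floor of the array. Megf10, an engulfment receptor (11.4 and 6.22 against 147 and 224), and Masp1, a protease of the complement lectin pathway (40.1 and 29.3 against 234 and 209), also rose from such a level, by 3.00 (SE 0.35, adjusted p = 0.0169) and 2.23 (SE 0.29, adjusted p = 0.022). The Masp1 call rests on a probe set that can cross-hybridize. Its other probe set above the filter, 1419677_at, differed by 0.39 (adjusted p = 0.743 in the fit without such probe sets). In bulk RNA more cells of a type and more RNA per cell cannot be told apart. These 6 genes had a control mean under 40.1, the signal below which a gene was left out when its mean over all arrays fell there. They were tested only because of their level in the knockdown arrays, and their log2 differences on the log2(signal + 16) scale understate the ratio of signals.

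Rises from a well measured control level were found in genes of cell polarity, contraction, chromatin and transcription. Prickle1, a core component of planar cell polarity, read 504 and 423 in shNT and 2269 and 1992 in shJmjd1c#4, with a log2 difference of 2.17 (SE 0.15, adjusted p = 0.00181). Its other probe set above the filter, 1444759_at, differed by 0.77, and the mean of its probe sets by 0.86 (adjusted p = 0.199). It was the 1 call among 22 Wnt targets and planar cell polarity genes, whose median was 0.31 (0.11 without shJmjd1c#4 replicate 1). Hmga2, an architectural chromatin protein and a target of the let-7 microRNAs, read 454 and 481 in shNT and 1510.3 and 1642 in shJmjd1c#4, with a log2 difference of 1.72 (SE 0.14, adjusted p = 0.00413). Prickle1 and Hmga2 were the 2 genes that passed the threshold whichever of the 6 arrays was left out, with the brightest probe set of each gene. Acta2, smooth muscle actin, read 584 and 911 in shNT and 2639 and 3749 in shJmjd1c#4, with a log2 difference of 2.08 (SE 0.25, adjusted p = 0.0191). The other Acta2 probe sets, both under the filter, differed by 0.13 and -0.17, and the mean of the probe sets by 0.68 (adjusted p = 0.382). In both groups replicate 2 was the higher one, and the group difference was larger than this spread. Il33, a cytokine kept in the nucleus, rose by 1.94 (SE 0.22, adjusted p = 0.0163). Meis2, a homeobox factor, rose by 1.93 (SE 0.26, adjusted p = 0.0232), and Pkdcc, a secreted protein kinase, by 1.84 (SE 0.21, adjusted p = 0.0163).

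Acta2 is a classical target of SRF, a factor that binds the CArG box, a motif of 10 bases with a core of A and T between CC and GG. The 250 bases before its annotated start are shown because they carry this motif, at chr19:34255374-34255623 on the minus strand of GRCm38.p6 in RefSeq. Capitals mark the matches, with at least 5 of the 6 core bases A or T:
Acta2: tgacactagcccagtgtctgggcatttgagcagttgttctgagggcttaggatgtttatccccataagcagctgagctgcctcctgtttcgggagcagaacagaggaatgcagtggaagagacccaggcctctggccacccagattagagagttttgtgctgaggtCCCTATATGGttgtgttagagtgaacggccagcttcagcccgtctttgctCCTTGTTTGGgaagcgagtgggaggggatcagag
The matches begin 84 and 34 bases before the annotated start. A window of 300 bases around the start held such a match in 9.98% of all 32851 promoters, read on both strands. Of 24 tested genes of a list of smooth muscle and SRF target genes that have a window, 9 held a match, among them Acta2, Flnc and Actc1. Of all 27025 genes 3050 did (11.3%). The list was chosen for targets of a factor that binds this motif, and with earlier results of these data known. The 2 shares therefore cannot be compared as a test. A match is a description of the letters and was not tested as a site.

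In that smooth muscle and SRF list of 26 tested genes Acta2 alone passed the test, and 25 of the 26 differences were above 0. Without cross-hybridizing probe sets, where Acta2 could not be tested, no gene of the list passed. The median difference of the list was 0.43, against 0.02 over all genes. With the replicate block 9 genes passed, all higher, against 2.69% of all genes. Tagln, the actin-binding protein transgelin, read 509.7 and 914 in shNT and 2016 and 1914 in shJmjd1c#4, with a log2 difference of 1.50 (adjusted p = 0.0723, and 0.00106 with the block). Flnc, a muscle filamin, was at 83.4 and 127 against 328 and 307, a difference of 1.48 (adjusted p = 0.118, and 0.00633 with the block). Cald1, caldesmon, was at 3098 and 3562 against 5143 and 6091, a difference of 0.75 (adjusted p = 0.102, and 0.00106 with the block).

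The collagen IV chains of the basement membrane rose together. Col4a1 read 698 and 787 in shNT and 2672 and 2050.2 in shJmjd1c#4, with a log2 difference of 1.64 (SE 0.17, adjusted p = 0.0157). The other Col4a1 probe set above the filter, 1426348_at, differed by 0.88, and the mean of the probe sets by 1.26 (adjusted p = 0.0551). Col4a2, whose product joins that of Col4a1 in one triple helix, read 182 and 212 in shNT and 734 and 562 in shJmjd1c#4, with a log2 difference of 1.63 (SE 0.22, adjusted p = 0.025). The genes lie head to head, with Col4a1 on the minus and Col4a2 on the plus strand, and their annotated starts are 21 bases apart. The 30 bases that span both starts, at chr8:11312801-11312830 on the plus strand of GRCm38.p6 in RefSeq, are shown because the starts of both genes fall in this one stretch, with capitals from one annotated start to the other:
Col4a1 and Col4a2 start sites: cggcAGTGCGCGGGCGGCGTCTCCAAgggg
The letters GGGCGG, a GC box, occur within the capitals, as they do on either strand in 35.7% of all promoter windows. Of 13 basement membrane genes tested, these 2 passed (3 with the block, the third being the laminin chain Lama1 at 0.66), and the list's median was 0.18 (0.09 without shJmjd1c#4 replicate 1). On the same arrays Serpinh1, the collagen chaperone HSP47, rose by 1.53 (SE 0.24, adjusted p = 0.0426), from 383 and 562 to 1247 and 1506.

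Among 27 interstitial matrix genes tested, Tnc, Col3a1, Dcn and Serpinh1 rose and none fell, with a median difference of 0.63. Tnc, Col3a1 and Dcn were tested only because of their level in the knockdown arrays. With a filter at the 60th percentile 1 gene of the list passed. The block added 3 genes, all higher, so that 7 of 27 passed, against 2.69% of all genes. Among 18 integrins and matrix receptors Antxr2 and Cd44 rose, and the median was 0.16 (0.09 without shNT replicate 2 and 0.29 without shNT replicate 1). Antxr2 too was tested only because of its level in the knockdown arrays. Cd44, the hyaluronan receptor, read 51.6 and 62.1 in shNT and 230.0 and 201 in shJmjd1c#4, with a log2 difference of 1.67 (SE 0.27, adjusted p = 0.0456). With the block 4 genes of this list passed upward and 1 downward, against 2.69% and 2.22% of all genes. The integrin chain Itga8 was at 92.7 and 109 against 237 and 249, a difference of 1.16 (adjusted p = 0.13, and 0.0137 with the block), and the syndecan Sdc1 at 0.83 (adjusted p = 0.123, and 0.00417 with the block).

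The intermediate filament genes Vim and Nes rose. Vim, vimentin of mesenchymal cells, read 4897 and 3066 in shNT and 9915 and 8949 in shJmjd1c#4, with a log2 difference of 1.28 (SE 0.20, adjusted p = 0.0425). Nes, nestin of neural progenitors, read 291 and 211 in shNT and 808 and 567 in shJmjd1c#4, with a log2 difference of 1.39 (SE 0.22, adjusted p = 0.0456). The other Nes probe set above the filter, 1418289_at, differed by 0.58, and the mean of the Nes probe sets by 0.98. Vim and Nes were the 2 calls among 17 neural genes (5 with the block), whose median was 0.47. Vim was also the 1 call among 13 mesenchymal factors (4 with the block), with a median of 0.37. Ets1, a transcription factor of mesenchymal cells, was at 134 and 119.9 against 366 and 459 (difference 1.58, adjusted p = 0.068, and 0.00317 with the block). Cdh2, N-cadherin, was at 857 and 440.1 against 1804 and 1412 (difference 1.35, adjusted p = 0.111, and 0.000738 with the block). Among 25 epithelial junction genes none passed (2 higher and 2 lower at an unadjusted p of 0.05), and with the block Epcam alone was lower. Epcam read 7379 and 6760.2 in shNT and 5529 and 5208 in shJmjd1c#4, a difference of -0.40 (adjusted p = 0.181, and 0.0185 with the block).

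Further rises were in signalling, growth and imprinted genes. Ccnd2, cyclin D2 of the G1 phase, read 362 and 270.2 in shNT and 1172 and 824 in shJmjd1c#4, with a log2 difference of 1.60 (SE 0.22, adjusted p = 0.025), and was the 1 call among 23 G1 control genes (3 with the block). Dusp6, a phosphatase that ERK signalling induces and that switches ERK off, read 2753 and 2269 in shNT and 4753 and 4496 in shJmjd1c#4, with a log2 difference of 0.88 (SE 0.13, adjusted p = 0.0341). It was the 1 call among 23 ERK response genes, whose median was 0.30, and 0.05 without shNT replicate 2. With the block 7 of these were higher and 1 lower, and Jun and Spred1 were at 0.91 and 0.64 (adjusted p = 0.072 and 0.0923, and 0.00313 and 0.0108 with the block). Peg3, a paternally expressed zinc finger gene, read 2394 and 2269 in shNT and 4338 and 4249 in shJmjd1c#4, with a log2 difference of 0.88 (SE 0.11, adjusted p = 0.0201), and 0.36 with the mean of its probe sets (adjusted p = 0.602). It was the 1 call among 24 imprinted genes, whose median was 0.27. With the block 8 imprinted genes were higher and 2 lower, against 2.69% and 2.22% of all genes. The imprinted genes Mest (1112 and 1061 against 2644 and 1873), Plagl1 (782 and 1084 against 1627 and 1952) and Mirg (393 and 401 against 857 and 604) were above both controls in both arrays and passed only with the block. Srgn, the proteoglycan serglycin of secretory granules, rose by 1.63 (SE 0.26, adjusted p = 0.0456).

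The remaining 14 genes that rose did so by 0.88 to 1.54 on the log2 scale. Fzd2 is a Wnt receptor, F2r the thrombin receptor and Lpar6 a receptor for lysophosphatidic acid. Ptpn13 is a protein tyrosine phosphatase and Cd24a a surface glycoprotein. Sox13 is a transcription factor, Zmiz1 a transcriptional coactivator and B9d1 a protein of the transition zone of the cilium. The others were Trio, Greb1l, Prtg, Nhsl1, Dip2c and D8Ertd738e. With the mean of probe sets Trio was at 0.67, Nhsl1 at 0.38 and Ptpn13 at 0.70, and without cross-hybridizing probe sets D8Ertd738e was at 0.45. The brightest of them, F2r, read 3938 and 3400 in shNT and 9353 and 7820 in shJmjd1c#4, with a log2 difference of 1.22 (SE 0.14, adjusted p = 0.0169).

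**Figure D3:**
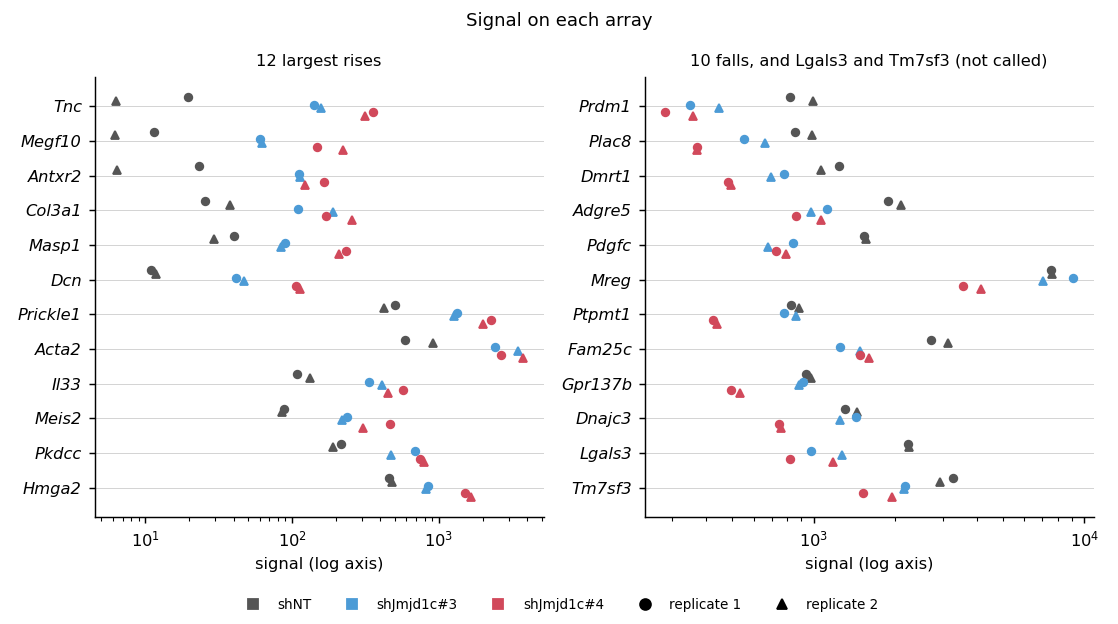
Signal on each of the 6 arrays (log axis) for the 12 largest rises and for the 10 falls with Lgals3 and Tm7sf3, which did not pass. Grey is shNT, blue shJmjd1c#3 and red shJmjd1c#4, with circles for replicate 1 and triangles for replicate 2. Red and grey symbols never overlap, which was a condition for naming these genes. For Mreg, Ptpmt1, Gpr137b and Dnajc3 the blue symbols lie at or near the grey ones.

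The falls were smaller in size than the rises and included regulators of the germ line. Prdm1, also called Blimp1, which is required to set up primordial germ cells, read 814 and 996 in shNT and 282 and 358 in shJmjd1c#4. Its log2 difference was -1.46 (SE 0.21, adjusted p = 0.0314). Dmrt1, a DM-domain factor of germ cells and testis, read 1237 and 1067 in shNT and 481 and 493 in shJmjd1c#4, with a log2 difference of -1.21 (SE 0.15, adjusted p = 0.0216). The 2 shJmjd1c#4 arrays were close to each other and well below both controls. Plac8, a small cysteine-rich protein, fell from 854 and 989 to 370.4 and 371, with a log2 difference of -1.27 (SE 0.17, adjusted p = 0.0232). Among 24 tested genes of a germ cell list Prdm1 alone passed, the median was -0.42 (-0.26 without shJmjd1c#4 replicate 1) and 20 genes were below 0. With the block 8 were lower and 1 higher, against 2.22% and 2.69% of all genes. Stag3, a meiotic cohesin subunit, read 1108 and 1559 in shNT and 516 and 783 in shJmjd1c#4 (difference -1.03, adjusted p = 0.135, and 0.0011 with the block). Aurkc, a meiotic kinase, was at 808 and 671 against 359.6 and 399 (difference -0.93, adjusted p = 0.0743, and 0.00808 with the block).

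Falls outside the germ line touched signalling, the endoplasmic reticulum, lysosomes and mitochondria. Pdgfc, a PDGF receptor ligand, fell from 1536 and 1560.0 to 725 and 792 (log2 difference -1.02, SE 0.15, adjusted p = 0.0397), the 1 call among 24 ephrin, PDGF and VEGF genes. Adgre5, the adhesion receptor CD97, fell from 1887 and 2099 to 860.2 and 1062 (-1.05, SE 0.15, adjusted p = 0.0341). Mreg, melanoregulin of lysosome-related organelles, fell from 7548 and 7612 to 3550.3 and 4139 (-0.98, SE 0.14, adjusted p = 0.0341). Dnajc3, a co-chaperone that restrains the kinase PERK, fell from 1307 and 1444 to 744 and 755 (-0.86, SE 0.14, adjusted p = 0.0456). It was the 1 call among 20 chaperone genes of the endoplasmic reticulum, whose median was 0.09 (-0.02 when arrays were centred on their median or without shJmjd1c#4 replicate 2). Of its 4 other probe sets above the filter, 1419163_s_at, 1449372_at and 1449373_at were lower by the smaller differences of -0.69, -0.43 and -0.35, and 1419162_s_at was at 0.14. With the mean of its probe sets Dnajc3 was at -0.44 (adjusted p = 0.369). Ptpmt1, a mitochondrial phosphatase of cardiolipin synthesis, fell by 0.96, Gpr137b, a lysosomal membrane protein, by 0.88 (-0.44 with the mean of its probe sets), and Fam25c by 0.92. Lgals3, galectin-3, missed the threshold at -1.18 (adjusted p = 0.051), with 2226 and 2247 in shNT and 816 and 1179 in shJmjd1c#4, as did Tm7sf3 at -0.84 (adjusted p = 0.0563).

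Core pluripotency genes stayed high, and no core or naive gene passed the test. An unadjusted p under 0.05 was held by 1 core and 10 naive genes, against 6.8% of all genes higher and 5.35% lower. Pou5f1 read 9069 and 11587 in shNT and 10932 and 9797 in shJmjd1c#4, which overlapped, with a log2 difference of 0.01 (SE 0.14). Sox2 read 16069 and 15944 in shNT and 12817 and 12259 in shJmjd1c#4, a difference of -0.35 (adjusted p = 0.224, and 0.0191 with the block). Nanog read 7434 and 11375 in shNT and 5888 and 7719.9 in shJmjd1c#4, a difference of -0.45 whose groups overlapped (adjusted p = 0.441, and 0.0178 with the block). The summed signal of 10 stem cell markers, all above the filter, was 111101 and 132465 in shNT, 99337 and 107140 in shJmjd1c#4, and 94168 and 100699 in shJmjd1c#3.

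Naive genes lay below their controls as a group. Of 24 tested, 23 had a negative difference and the median was -0.36, against 0.02 over all genes. Calls came only with the replicate block, 11 lower and 1 higher, against 2.22% and 2.69% of all genes. With 1 array left out the median ran from -0.70 (without shNT replicate 1) to -0.20 (without shNT replicate 2). Dppa3, a maternal factor of naive cells and germ cells, read 2353 and 2946 in shNT and 1311 and 1492 in shJmjd1c#4, a difference of -0.91 (adjusted p = 0.0639, and 0.00105 with the block). Klf4, a Krüppel-like factor of naive cells, was at 7383 and 8209 against 4112 and 5557 (-0.70, adjusted p = 0.102, and 0.00331 with the block). The junction protein gene Jam2 was at 2269 and 3243 against 948 and 1758 (-1.06, adjusted p = 0.158, and 0.00238 with the block). Gbx2, a homeobox gene that sustains self-renewal, was the exception, at 415 and 518 against 1836 and 916 (1.45, adjusted p = 0.09, and 0.00476 with the block).

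Formative and primed genes lay mostly above their controls. None of 20 tested passed, and the median was 0.60, against 0.02 over all genes. At an unadjusted p of 0.05, 7 were higher and 1 lower, against 6.8% and 5.35% of all genes. With the block 9 were higher and 1 lower, against 2.69% and 2.22% of all genes. With 1 array left out the median ran from 0.85 (without shNT replicate 1) to 0.10 (without shNT replicate 2). Sall2, a zinc finger factor, was at 274 and 163 against 845 and 482 (1.52, adjusted p = 0.103, and 0.000667 with the block), and Etv4, an Ets factor downstream of FGF, at 149 and 251 against 532 and 393 (1.17, adjusted p = 0.13, and 0.0215 with the block). Fgf5, the FGF ligand of the formative epiblast, read 36.1 and 8.63 in shNT and 174 and 113 in shJmjd1c#4, a difference of 2.13 (adjusted p = 0.11, and 0.00335 with the block). Its control mean of 22.4 was under 40.1, so it too was tested only because of its level in the knockdown arrays. Nodal, the TGF-beta family ligand, went the other way, at 2888 and 3073 against 1813 and 2172 (-0.58, adjusted p = 0.129, and 0.00739 with the block). Its inhibitor Lefty2 was at 3254 and 2165 against 1370.3 and 1089 (-1.11, adjusted p = 0.11, and 0.000567 with the block). Among 20 Nodal and BMP pathway genes none passed (3 higher and 3 lower at an unadjusted p of 0.05).

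**Figure D4:**
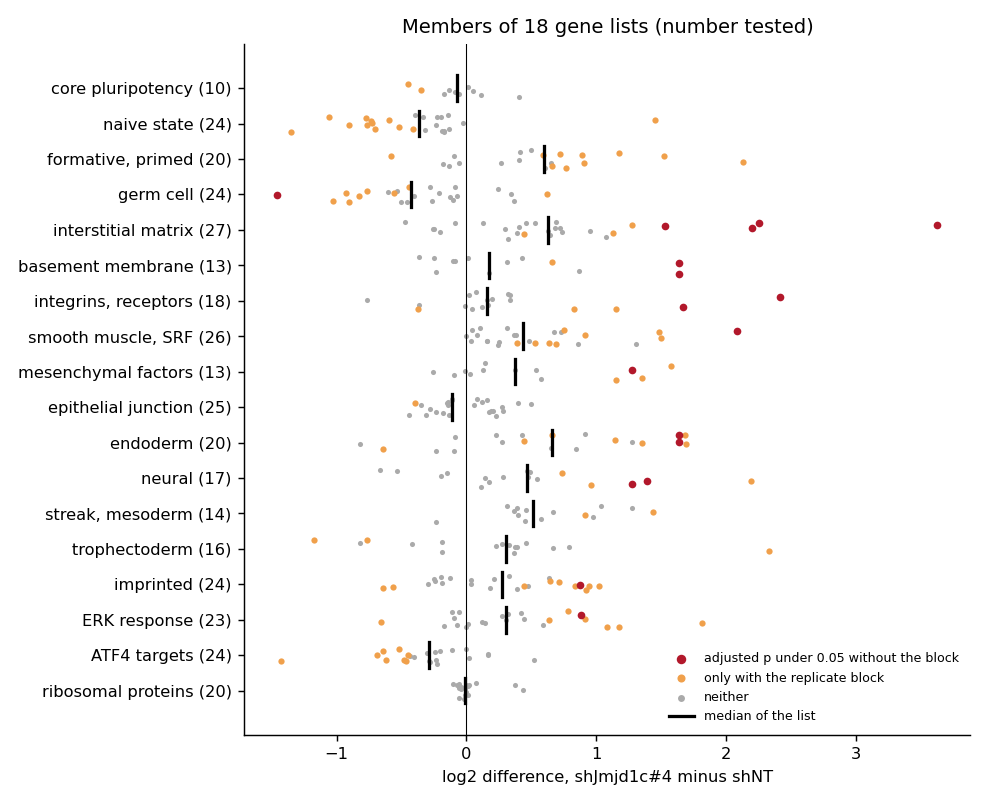
Log2 difference between shJmjd1c#4 and shNT for each tested member of 18 gene lists, with the number tested in brackets and the list median as a black bar. Red points passed the test, orange points only with the replicate block and grey points neither. The medians run from -0.42 (germ cell) to 0.66 (endoderm), ribosomal protein genes lie at -0.01, and some genes belong to more than 1 list.

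Of the endoderm genes Cubn, Dab2 and one probe set of Sox17 were above both controls in shJmjd1c#4 and near their control level in shJmjd1c#3. Of 20 tested, Col4a1 and Col4a2 rose, and with the block 8 were higher and 1 lower, against 2.69% and 2.22% of all genes. The median was 0.66, while the median in shJmjd1c#3 against the same controls was 0.23. Cubn, the endocytic receptor cubilin, read 111 and 83.8 in shNT, 408 and 289.7 in shJmjd1c#4, and 121 and 83.8 in shJmjd1c#3 (1.68, adjusted p = 0.0635, and 0.00218 with the block). Dab2, an endocytic adaptor of primitive endoderm, read 265 and 140.2 in shNT, 651 and 412 in shJmjd1c#4, and 245 and 218 in shJmjd1c#3 (1.35, adjusted p = 0.13, and 0.00372 with the block), and its mean of probe sets differed by 0.69 (adjusted p = 0.417). Sox17, a factor that specifies endoderm, read 59.2 and 45.9 in shNT, 261 and 159.7 in shJmjd1c#4, and 65.6 and 62.0 in shJmjd1c#3, and its difference in shJmjd1c#4 was 1.69 (adjusted p = 0.0743, and 0.00902 with the block). This probe set can cross-hybridize. Without such probe sets the difference of Sox17 was 0.18 (adjusted p = 0.904), and with the mean of its probe sets 0.94 (adjusted p = 0.309). Lrp2, the endocytic receptor megalin, was above both controls with either hairpin, at 993 and 777 in shJmjd1c#4 and 991 and 860.0 in shJmjd1c#3. Its difference in shJmjd1c#4 was 1.14, and 0.75 without cross-hybridizing probe sets. The summed signal of 10 primitive endoderm markers was 829 and 577 in shNT, 1619.9 and 1147 in shJmjd1c#4, and 724 and 603 in shJmjd1c#3. Of the 10, 7 were above both controls in shJmjd1c#4, as were 21% of all genes tested. The 10 include genes under the filter, for which no such share was computed. Foxa2, Afp and Ttr of that list did not pass the filter, with Foxa2 at 24.1 and 9.12 in shNT and 66.7 and 65.8 in shJmjd1c#4, and Hnf4a was at 190.2 and 142 against 109 and 67.9.

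Summed markers of fibroblasts, primitive streak and mesoderm, and neural cells were higher in both shJmjd1c#4 arrays than in both controls, those of blood and endothelium were lower, and those of trophectoderm and of 2-cell-like cells were not higher. All 14 tested fibroblast markers had a positive difference, with a median of 0.64, and Col3a1 and Dcn passed (3 genes with the block), which are also counted among the matrix genes above. Col3a1 and Dcn were tested only because of their level in the knockdown arrays. Summed over the 24 on the array, the fibroblast markers read 3611 and 3481 in shNT, 5563 and 5418 in shJmjd1c#4, and 4431 and 4449 in shJmjd1c#3. Of the 24, 15 were above both controls in shJmjd1c#4, as were 21% of all genes tested. The 24 include genes under the filter, for which no such share was computed. The 10 fibroblast markers that did not pass the filter, among them Postn, Lum and Fap, read at most 87.7 on any array (S100a4 on a shJmjd1c#4 array). In a fit without the filter their differences ran from -0.26 (Col6a1) to 1.34 (Twist2), with Col6a1 and Fap below 0 and the others above. The filter takes in the knockdown arrays, which favours markers that are high there. The 23 primitive streak and mesoderm genes summed to 1564 and 1653 in shNT against 2526 and 2483 in shJmjd1c#4. The 22 neural genes summed to 15430.3 and 14044 against 21319 and 20223. They include Vim, also counted among the mesenchymal factors, which alone read 4897 and 3066 against 9915 and 8949. Most of the rise in the neural sum came from Vim. The 18 trophectoderm genes summed to 9258 and 13143 against 8728 and 11748. The 12 blood and endothelial markers summed to 1251 and 1128 against 976 and 1009.7, and the 6 markers of 2-cell-like cells to 4519.6 and 4705 against 4022 and 4670.0. What part other cells have in the rises of matrix and filament genes was not tested.

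In several other pathways no gene passed without the block at the main settings. Over all genes 6.8% were higher and 5.35% lower at an unadjusted p of 0.05, and 2.69% and 2.22% passed with the block. With arrays centred on their median, 1 ATF4 target, 1 glycolysis or hypoxia gene and 1 trophectoderm gene passed, all lower. Among 10 Hedgehog genes none passed (2 higher and 4 lower at an unadjusted p of 0.05), and with the block 3 were lower and 1 higher. Gli1, the transcription factor and target of the pathway, read 472 and 626 in shNT and 208 and 255 in shJmjd1c#4 (-1.19, adjusted p = 0.0664, and 0.00404 with the block), and the receptor Ptch1 was at 5389 and 4903 against 3496 and 3368 (-0.58, adjusted p = 0.112, and 0.00528 with the block). Of 24 ATF4 targets none passed (1 higher and 8 lower at an unadjusted p of 0.05), the median was -0.29, and 8 were lower with the block. The stress gene Nupr1 read 976 and 1649 in shNT and 405 and 525 in shJmjd1c#4 (-1.43, adjusted p = 0.0578, and 0.001 with the block). Among 23 sterol and fatty acid genes none passed (3 higher and 0 lower at an unadjusted p of 0.05), and the isoprenoid enzyme Idi1 was at 1983 and 1419 against 3257 and 2886 (0.86, adjusted p = 0.0743, and 0.00137 with the block). Of 14 H3K9 methyltransferases and readers none passed (0 higher and 2 lower at an unadjusted p of 0.05), and with the block 2 were lower. Cdyl2, a CDY-like reader, was at 5108 and 5258 against 2225 and 3492 (-0.89, adjusted p = 0.103, and 0.00814 with the block). Cbx3, an HP1 protein that reads H3K9 methylation, was at 151 and 108 against 11.96 and 40.3 (-1.86, adjusted p = 0.165, and 0.032 with the block). Its shJmjd1c#4 values were under or near the filter signal of 40.1, and it was tested because of its level in the other arrays. Among 16 trophectoderm genes none passed (2 higher and 3 lower at an unadjusted p of 0.05), and Cdx2, which sets up the trophectoderm, was at 18.8 and 2.43 in shNT and 104 and 119.8 in shJmjd1c#4 (2.33, adjusted p = 0.079, and 0.0139 with the block). The control mean of Cdx2, 10.6, was under 40.1, so it was tested only because of its level in the knockdown arrays. The 25 glycolysis and hypoxia genes held no call (0 higher and 2 lower at an unadjusted p of 0.05), and the phosphofructokinase Pfkp was at 7257 and 6457 against 4573 and 4226 (-0.64, adjusted p = 0.0787, and 0.00178 with the block). The 16 p53 targets had a median of 0.01 with no call and none at an unadjusted p of 0.05, and the 20 ribosomal protein genes one of -0.01 with no call and 2 higher at an unadjusted p of 0.05.

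The other hairpin was compared with the same 2 shNT arrays, so its values stand beside those of shJmjd1c#4 only as a description. Tnc differed from shNT by 3.63 in shJmjd1c#4 and by 2.55 in shJmjd1c#3, Prickle1 by 2.17 and 1.46, Acta2 by 2.08 and 1.97, Hmga2 by 1.72 and 0.81, Vim by 1.28 and 0.82 and Nes by 1.39 and 1.36. For the falls, Prdm1 was at -1.46 and -1.16, Dmrt1 at -1.21 and -0.63, Pdgfc at -1.02 and -1.02, and Mreg at -0.98 and 0.08. Naive genes had medians of -0.36 and -0.45, and epithelial junction genes medians of -0.11 and 0.34.

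**Figure D5:**
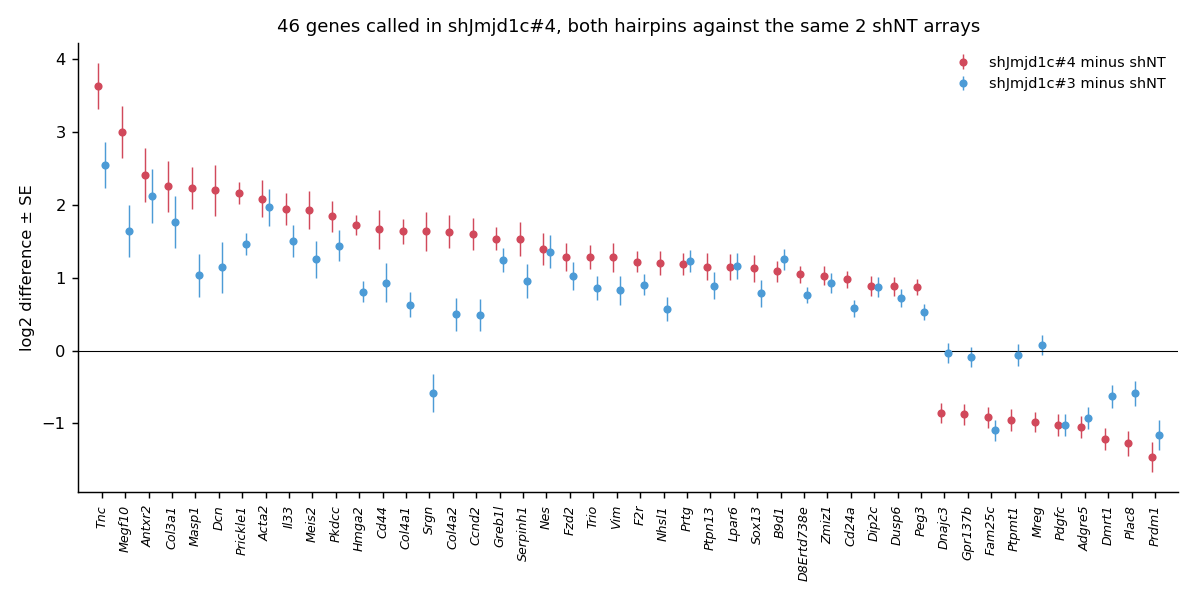
Log2 difference from shNT with its SE for the 46 genes that passed in shJmjd1c#4, in red for shJmjd1c#4 and in blue for shJmjd1c#3. Both use the same 2 shNT arrays, and the genes were chosen for the red values. The blue value of Srgn is -0.58 beside a red value of 1.63, and the blue values of Mreg, Ptpmt1, Gpr137b and Dnajc3 lie between -0.09 and 0.08.

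The difference between the hairpins was tested directly on the shJmjd1c#4 and shJmjd1c#3 arrays. In limma no gene of 12684 passed (774 at an unadjusted p of 0.05), and with the replicate block 53 did (0.418%), 22 higher and 31 lower in shJmjd1c#4. Srgn was 2.22 higher in shJmjd1c#4 (SE 0.26, adjusted p = 0.191, and 0.00112 with the block), with 752 and 618 against 158 and 113. Cubn was 1.62 higher (adjusted p = 0.361, and 0.0168 with the block), Col4a1 1.01 higher (adjusted p = 0.352, and 0.0219 with the block) and Hmga2 0.91 higher (adjusted p = 0.352, and 0.0168 with the block). Nr2f2, an orphan nuclear receptor, was 2.03 higher (adjusted p = 0.361, and 0.064 with the block), with 118 and 95.0 in shJmjd1c#4 against 17.6 and 10.6. Its mean was 14.1 in shJmjd1c#3 and 41.6 in shNT, under or near the filter signal of 40.1. It was tested because of its level in the shJmjd1c#4 arrays. Vegfc, a lymphatic growth factor, was 0.77 higher (adjusted p = 0.352, and 0.0237 with the block). In the downward direction Mreg was at -1.06 (adjusted p = 0.274, and 0.0122 with the block), with 3550.3 and 4139 in shJmjd1c#4 against 9096 and 7029.5. Ssr1, a subunit of the translocon-associated complex of the endoplasmic reticulum, was at -0.95, Ptpmt1 at -0.90, Dnajc3 at -0.83, the adaptor subunit Ap1m2 at -0.81 and the membrane protein Pgrmc1 at -0.61, each with an adjusted p between 0.352 and 0.361 and, with the block, between 0.0168 and 0.0219. Of the 46 genes called against shNT, which were chosen on the same shJmjd1c#4 arrays, none passed this test, and 10 did with the block.

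The arrays were alike in scale. The median signal was 69.3 to 81.3. The mean signal of the middle 96% of probe sets was 500.003 on every array. An identical value is what scaling to a common target gives, so it does not measure how alike the arrays were. The correlation across genes was 0.978 between the shNT and 0.980 between the shJmjd1c#4 replicates, and 0.969 to 0.977 between the groups. The Actb ratio of 3' to 5' probe sets was 2.70 and 2.77 in shNT, 2.80 and 2.81 in shJmjd1c#4 and 2.26 and 2.40 in shJmjd1c#3. The 18S probe set at the 3' end read 8140 and 6875 in shNT and 3712 and 5013 in shJmjd1c#4, and what part residual ribosomal RNA has in any result was not tested. Of the 46 genes called, 23 had another probe set above the filter, 42 in all, and 40 of these had the same sign. The opposite ones belonged to Dnajc3 (1419162_s_at) and Trio (1439552_at, -0.37).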

How the data were processed

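Total RNA (6 µg per sample) was hybridised to Affymetrix arrays. The deposited signal intensity was made by the authors with MAS5, per the submitters' processing notes; its version, the target scaling and detection calls are not given in the sources used here. Signals were taken as log2(signal + 16). Probe sets were named from the platform annotation (34945 of 45101 with 1 symbol, 932 with several, 9160 with none; 34741 matched RefSeq by Entrez ID). A gene was represented by its brightest probe set on average over the 6 arrays, and genes with a mean under the 40th percentile were left out. The 3 group means were fitted to all 6 arrays with limma 3.58.1 (R 4.3.3, eBayes with trend, two-sided, Benjamini-Hochberg over 12684 genes), tested on simulated data. The p-values rest on the spread between replicates pooled over the 3 groups, with 3 residual degrees of freedom. That spread is moderated by the spread of all genes at like intensity, with 5.96 prior degrees of freedom. The number of arrays limits the precision.

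Named were Jmjd1c, Pou5f1, Sox2, Nanog, the 12 largest called rises and the falls, filled up to 12 by p, up to 4 members per list by p, and 6 genes each way between the hairpins; the other called genes are named to complete the count. Members and lists were chosen with earlier results of these data known. Same-numbered replicates deviated together (correlation over genes 0.223 for shNT with shJmjd1c#4, 0.302 for shNT with shJmjd1c#3, 0.300 for the hairpins), so the numbers were taken to pair the samples; no label states a shared preparation. Promoters are from RefSeq, GRCm38.p6. Alternatives were other pseudocounts, filters, normalizations, probe set rules, variance trend, arrays, the replicate block and leaving out each array.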

Additional observations from a re-analysis of the deposited data

Results flagged for a closer look

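Among the 12 genes named for their difference between the hairpins, 4 had one hairpin's arrays above both controls and the other's below both. This pattern was found in 265 of all 12684 genes (2.09%). The 12 were chosen for non-overlapping arrays of the hairpins, which favours the pattern, so the 2 shares cannot be compared. Between shJmjd1c#4 and shJmjd1c#3 the log2 difference was 2.22 for Srgn, 2.03 for Nr2f2, 0.77 for Vegfc and -0.81 for Ap1m2. In limma none of these passed (adjusted p = 0.191, 0.361, 0.352 and 0.352), and with the replicate block Srgn, Vegfc and Ap1m2 did (adjusted p = 0.00112, 0.0237 and 0.0207).

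Probe sets without a gene name were not part of the gene comparison. In a fit with them (27022 probe sets, 4161 of them unnamed) 2 unnamed ones rose in shJmjd1c#4 and none fell (72 passed with the replicate block). Probe set 1438989_s_at read 46.8 and 37.7 in shNT, 325 and 397 in shJmjd1c#4 and 223 and 174 in shJmjd1c#3, a log2 difference of 2.69 (adjusted p = 0.0219). Probe set 1459702_at read 8.25 and 7.10 in shNT, 152 and 106 in shJmjd1c#4 and 57.9 and 45.0 in shJmjd1c#3, a log2 difference of 2.59 (adjusted p = 0.0477). Its control values were under the filter signal of 40.1, so it was tested only because of its level in the knockdown arrays.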

How the results depend on the processing

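With 2 arrays a group, the count of 46 calls moved with the settings. All of the 46 genes that could be tested kept their sign under each alternative. For leaving out arrays, the filters, the variance trend and the block this was fixed in advance. In all 46 both shJmjd1c#4 arrays lay on one side of both shNT arrays, which sets the sign there. The count was 21 without a filter on dim genes, 27 with the mean of all probe sets of a gene and 6 without the intensity trend of the variance. It was 622 with the replicate block, which also took the count between the hairpins from 0 to 53. Leaving out 1 array at a time gave 3 to 39 calls. Other pseudocounts gave 37 and 48, the stricter filter 32, quantile normalization 37, median centring 55, no cross-hybridizing probe sets 39 and the 4 arrays alone 36. For Jmjd1c, 1426900_at (-0.64) and 1448049_at (0.93) passed only with the block, and the mean of its probe sets turned the difference to 0.36, since they point in opposite directions. Pou5f1, near 0, turned to -0.10 with median centring and ran from -0.16 (without shNT replicate 1) to 0.19 (without shNT replicate 2), with -0.07 without shJmjd1c#4 replicate 1; the cause of these turns was not tested.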
